A study of Saccharomyces cerevisiae with 236 samples.

Results

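Growth on glycerol of the BC collection was read from 13 of the 236 barcode arrays of the series, 4 from pools grown in YPG and 9 from pools grown in YPD without DMSO, chosen by the medium that the labels name. Each strain of a yeast deletion collection carries a pair of DNA tags, an uptag and a downtag, and the array reports the log2 intensity of each tag, which follows the abundance of its strain in the pool. YPG is a rich medium with 3% glycerol as carbon source, and YPD is the same kind of medium with glucose. Pools were grown for 5 generations at 30 °C. The BC collection (BCprot) is a haploid prototrophic collection made by backcrossing, of genotype MATa can1Δ::STE2pr-SpHIS5 his3Δ1 lyp1Δ0 in the BY4741 background, and its strains were selected on minimal medium. It was set against 2 other collections grown in the same media: PB (PBprot), MATa his3Δ1 leu2Δ0 met17Δ0 ura3Δ0 haploids that carry the pHLUM plasmid, and YKO (YKOaux), the auxotrophic homozygous diploids of BY4743. PB had 4 YPG and 9 YPD arrays, and YKO had 2 YPG and 8 YPD arrays. BC was also grown in YPD with the uncouplers CCCP (32 µM, 3 arrays) or FCCP (6 µM, 3 arrays), with 7 arrays in YPD with 2% DMSO as their control. The labels give manual harvest for these arrays, whereas the methods give automatic collection for the YPG screens, so that method of harvest and medium cannot be told apart if the methods hold. The labels do not say that replicate arrays came from separate cultures. The methods name duplicate wells of a plate and biological replicates in triplicate, without saying which arrays these are. The spread behind each BC p-value was shared over 36 BC arrays, which also include 4 arrays with cisplatin and 6 with a quinolone compound in YPD. The p-values therefore measure the spread between arrays of all these groups, not of YPG and YPD alone, and that spread may be technical.

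Budding yeast ferments glucose and can grow on it without respiring. Glycerol is taken up, phosphorylated by Gut1 and oxidized by Gut2 on the mitochondrial inner membrane, and its further use needs the tricarboxylic acid cycle, the respiratory chain and the ATP synthase. Several subunits of the chain are encoded by mitochondrial DNA, so that mitochondrial ribosomes, tRNA synthetases and DNA maintenance are needed as well. Yeast strains that cannot respire grow on glucose, where they form small (petite) colonies, and do not grow on glycerol. A strain that grows more slowly than its pool falls in relative abundance with each generation. The fitness defect (FD) score used here is the YPD median minus the YPG median of a strain's tag, in log2 units, so a positive score means that the strain was lower in YPG and a negative score that it was higher in YPG.

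The arrays hold 10198 tags of 5179 deletion strains (4993 ORFs). A strain was tested when at least 1 of its tags lay above a presence threshold, 7.37 log2 units for BC, in all 16 BC control arrays (9 YPD and 7 YPD with DMSO). This held for 3837 BC strains, and each was scored on 1 present tag, the one that varied least (coefficient of variation) over those arrays. Array medians over all tags were level, 8.94 to 8.98 log2 units in YPG and 8.89 to 8.98 in YPD. Medians over the tested tags were less so. They were 9.86 to 9.92 in YPG, 9.97 to 10.08 in YPD replicates 1 to 5 and 9.86 to 9.88 in YPD replicates 6 to 9. The median over the tags not present was 6.10 to 6.58 log2 units in the YPG arrays and 5.43 to 6.57 in the YPD arrays, and 11 to 27 of the tested tags lay under the presence threshold in a YPG array. The median FD score of all strains tested was 0.11, and the 1st and 99th percentiles were -0.86 and 0.96. With YPD replicates 1 to 5 as control this median was 0.19, and with YPD replicates 6 to 9 it was 0.02. What set these YPD arrays apart was not tested.

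Most deletion strains of the respiratory lists did not pass the presence threshold in the BC control arrays, which were grown on glucose. The 8 lists of genes for complexes II, III and IV, the ATP synthase, coenzyme Q synthesis, the mitochondrial ribosome, mitochondrial translation, and mitochondrial DNA and its RNA hold 255 strains on the array. Of these, 73 (28.6%) were present in BC, against 63.5% in PB and 47.8% in YKO. Over all strains, presence was 74.1% in BC, 77.5% in PB and 75.9% in YKO. In the longest list, the mitochondrial ribosomal proteins, 12 of 78 strains were present in BC, 45 in PB and 34 in YKO. Of the aminoacyl-tRNA synthetases and other mitochondrial translation factors, 6 of 35 were present in BC, 25 in PB and 18 in YKO. Complex IV, cytochrome c oxidase, had 12 of 41 in BC, 28 in PB and 19 in YKO. Complex II, succinate dehydrogenase, ran the other way, with 8 of 9 in BC, 6 in PB and 5 in YKO. These counts rest on a threshold fitted to each collection and were not tested.

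**Figure D1:**
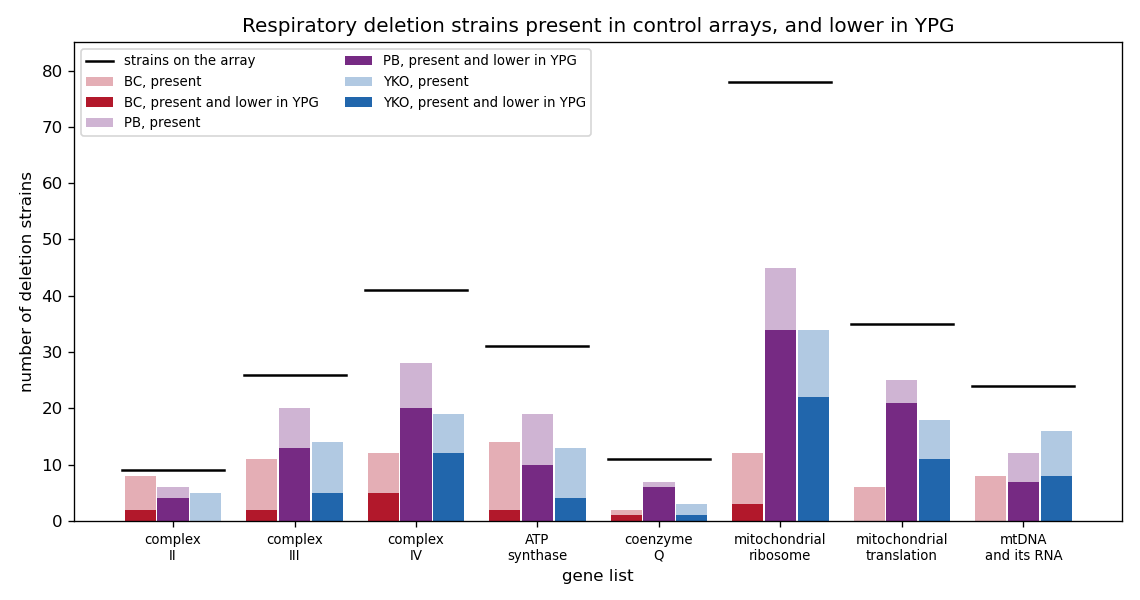
Number of deletion strains (y axis) in 8 respiratory gene lists (x axis) for BC, PB and YKO: pale bars are strains present in the control arrays, dark bars those of them called lower in YPG, and black lines the strains on the array. BC had 12 of 78 mitochondrial ribosome strains present and 3 of them lower in YPG, whereas PB had 45 present and 34 lower.

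Strains whose defect in glycerol was measured in the other collections were mostly among those not present in BC. In PB, 4.83% of 4015 strains tested were called lower in YPG, by an FD score of at least 1 with a Benjamini-Hochberg q from limma under 0.05, and 62.4% of those called had no present tag in BC. In YKO, 2.62% of 3929 strains were called lower by the same rule, of which 68 had no present tag in BC and 35 did. Among all 4015 strains tested in PB, at least 3545 had a present tag in BC, counting those with the same tag present in both. Among all 3929 tested in YKO, at least 3372 did. The higher of the median YPD intensities of a strain's tags had a median of 6.38 log2 units in BC over the strains called in PB and not present in BC. It lay under the presence threshold for 88.4% of them. Of the 73 strains lower in PB that were tested in BC, 15 (20.5%) were also called in BC and 66 had an FD score above 0, with a median of 0.52. Of the 35 lower in YKO and tested in BC, 10 (28.6%) were called in BC, 34 had a score above 0, and the median was 0.87. Over all 3837 strains tested in BC, 0.860% were called lower, 2532 had a score above 0, and the median was 0.11. Of the strains called lower in PB, those not present in BC had a median FD score of 2.02 in PB, against 1.40 for the 73 tested in BC. This difference was not tested.

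Among the 3837 BC strains tested, 33 (0.860%) were called lower in YPG and 17 (0.443%) were called higher. The presence rule used control arrays alone, so strains under the threshold on glucose that rose on glycerol were not tested. Without a presence filter, 40 of 5179 strains were called lower and 41 higher. Without the demand on the size of the score, 292 strains had a q under 0.05, 61.3% of them with a positive score, close to the 2532 of 3837 strains with a positive score whatever their q. Of the 33 lower strains, 15 belonged to the 8 respiratory lists, which hold 73 of the 3837 strains tested, and none of the 17 higher strains did. All 4 YPG arrays lay below the lowest YPD array for 27 of the 33, against 2.76% of all strains tested. All 4 lay above the highest YPD array for 8 of the 17, against 2.01% of all strains tested. These same arrays had served to choose the called strains, so these counts are a description. For 11 of the 33 lower strains, at least 1 YPG array lay under the presence threshold. A further tag was present for 14 of the 33 strains, and on it, which the fit did not use, all 14 had a positive score and 9 a score of at least 1. For the higher strains 4 had such a tag, all 4 with a negative score and 2 at -1 or less. Over all 2171 strains with a pair of present tags, the tags had the same sign in 79.3%. Scores just past the thresholds were 1.01 (CYK3), 1.04 (MIC10) and 1.04 (SNA4), and -1.002 (RPL9A), -1.02 (SET3) and -1.03 (RSC1). Just short of them, with q under 0.05, were 0.999 (MDM38), 0.98 (APL5) and 0.96 (YMR245W), and -0.999 (CAF4), -0.99 (DAP2) and -0.98 (YPL264C).

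Cytochrome c oxidase, the last complex of the respiratory chain, gave the most calls of any list. Of its 12 present strains, 5 fell in YPG and none rose, against 0.860% and 0.443% of all strains tested. The list median was 0.89, against 0.11 over all strains tested. COA4, which encodes a small assembly factor of the oxidase in the intermembrane space, had the highest FD score of all strains. Its tag read 7.90, 8.32, 6.86 and 6.45 log2 units in the 4 YPG arrays, against 8.83, 9.96 and 10.49 in YPD (lowest, median and highest of 9 arrays). The score was 2.58 (SE of the limma difference 0.29, q = 8.77e-07). All 4 YPG values lay under the lowest YPD value, and 2 of them lay under the presence threshold, where intensities approach those of absent tags. COX5A, the main isoform of subunit 5, read 8.99, 9.32, 9.15 and 8.74 in YPG, against 9.79, 10.61 and 10.81 in YPD, with a score of 1.54 (SE 0.16, q = 2.01e-07). COX5B, the isoform known to be made mainly without oxygen, had a score of 0.30 (q = 0.258). COX23, a copper-related assembly factor, read 8.07, 8.17, 8.02 and 7.46 in YPG, against 9.20, 9.35 and 10.08 in YPD (FD score 1.30, q = 9.44e-07), and its second tag gave 2.08. COX12, subunit 6b, and CMC1, another assembly factor, had scores of 1.21 (q = 9.62e-07) and 1.20 (q = 9.44e-07). COA2 (0.92) and COX13 (0.85) passed the q threshold and not the size threshold. MSS2, which is needed to export a part of Cox2 across the inner membrane, read 8.76, 8.46, 9.30 and 9.09 in YPG, against 8.31, 8.86 and 9.39 in YPD, within the YPD range (FD score -0.06, q = 0.937).

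Complex III, which passes electrons to cytochrome c, had 11 strains present, of which 9 had a positive score with q under 0.05 and 2 passed both limits. CYT2, the lyase that attaches heme to cytochrome c1, read 8.19, 8.44, 7.94 and 8.12 in YPG, against 9.14, 9.56 and 10.87 in YPD (FD score 1.41, SE 0.26, q = 9.71e-05), without overlap. Its second tag gave a lower score, 0.51. CYC2, which acts in heme attachment to cytochrome c, scored 1.095 (q = 0.000167). CYC1, the main cytochrome c, scored 0.89 (q = 0.00381), and the complex III subunits QCR9 and QCR6 scored 0.68 (q = 0.000316) and 0.57 (q = 0.00406). CYC7, the minor cytochrome c isoform, scored 0.15 (q = 0.422). RCF1, a protein of the complex III and IV supercomplex, lies outside the lists and scored 1.09 (q = 0.000671).

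Of the 8 complex II strains present, 2 fell in YPG, against 0.860% of all strains tested. SDH6, an assembly factor of succinate dehydrogenase, read 7.94, 7.66, 7.71 and 7.08 in YPG, against 8.51, 8.87 and 9.81 in YPD (FD score 1.19, SE 0.19, q = 2.05e-06), without overlap. FLX1, a transporter of FAD into mitochondria, read 8.42, 7.88, 9.14 and 8.08 in YPG, against 8.74, 9.31 and 9.58 in YPD (FD score 1.06, q = 0.0136), and 1 YPG array lay within the YPD range. The FLX1 score was 0.89 without YPG replicate 2 or without YPG replicate 4, and 0.96 to 0.98 without YPD replicate 1, 2, 4, 5 or 8. The subunits SDH2 and SDH4 themselves scored 0.59 (q = 0.0558) and 0.04 (q = 0.584).

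ATP synthase had 14 strains present, 2 of which fell, against 0.860% of all strains tested, and a list median of 0.26. ATP10 and ATP23 both assist assembly of the membrane part of the enzyme, and ATP23 is also the protease that matures its Atp6 subunit. ATP10 read 8.23, 8.28, 7.29 and 6.79 in YPG, against 8.38, 9.16 and 9.73 in YPD (FD score 1.40, SE 0.24, q = 4.69e-05), and its score was 0.93 without YPG replicate 3 or without YPG replicate 4. ATP23 read 6.81, 7.09, 7.38 and 6.98 in YPG, against 7.96, 8.26 and 9.19 in YPD (FD score 1.23, SE 0.21, q = 4.69e-05), and 3 of its YPG values lay under the presence threshold. ATP11, a chaperone of the catalytic part, scored 0.35 (q = 0.245). COQ10, which binds coenzyme Q and is needed for its use in the chain, was 1 of 2 coenzyme Q strains present. It read 9.95, 10.25, 9.25 and 8.97 in YPG, against 10.19, 10.72 and 11.44 in YPD (FD score 1.12, SE 0.20, q = 0.000395). The score was 0.77 without YPG replicate 3 or without YPG replicate 4.

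Mitochondrial gene expression was represented by few strains. Of the 12 mitochondrial ribosome strains present, 3 fell, against 0.860% of all strains tested. MRP49, a large-subunit protein, read 9.48, 9.83, 9.57 and 8.40 in YPG, against 10.35, 10.62 and 10.97 in YPD (FD score 1.09, SE 0.19, q = 2.18e-05), and its second tag gave 1.66. RTC6, also of the large subunit, read 8.68, 8.63, 8.80 and 7.65 in YPG, against 9.15, 9.81 and 10.57 in YPD (FD score 1.15, SE 0.24, q = 0.000315). MRPL39 was carried by a pair of strains that did not give the same result: 1 strain scored 1.14 (q = 0.000104) and the other 0.29 (q = 0.37). None of the 6 mitochondrial translation strains and none of the 8 strains for mitochondrial DNA and its RNA passed both limits. IFM1, the mitochondrial initiation factor, came nearest, at 8.95, 8.93, 8.56 and 7.93 in YPG, against 9.19, 9.60 and 9.90 in YPD (FD score 0.86, q = 0.000628). MSK1, the mitochondrial lysyl-tRNA synthetase, read 8.90, 9.39, 9.45 and 8.94 in YPG, against 8.62, 9.11 and 10.09 in YPD, and scored -0.05 (q = 0.886). MNE1 and QRI5, which both act on the mitochondrial COX1 transcript and are outside the lists, fell. MNE1 read 8.28, 8.42, 7.44 and 7.62 in YPG, against 8.55, 9.28 and 9.76 in YPD (FD score 1.33, SE 0.20, q = 1.84e-05), and its second tag gave 1.42. Its score was 0.9996, just under the limit, without YPG replicate 3 or without YPG replicate 4. QRI5 read 8.35, 8.27, 8.47 and 8.02 in YPG, against 9.29, 9.84 and 10.12 in YPD (FD score 1.53, SE 0.20, q = 9.62e-07), and its second tag gave 1.01.

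In the tricarboxylic acid cycle both subunits of the NAD-dependent isocitrate dehydrogenase fell. IDH2 read 7.03, 6.57, 6.64 and 7.34 in YPG, against 7.43, 8.74 and 9.25 in YPD (FD score 1.91, SE 0.31, q = 0.000138). It was the only called strain with all 4 YPG arrays under the presence threshold. IDH1 read 8.81, 9.04, 8.92 and 8.09 in YPG, against 9.35, 10.0005 and 10.18 in YPD (FD score 1.13, SE 0.18, q = 3.92e-05), and its second tag gave 0.79. Citrate synthase, CIT1, and malate dehydrogenase, MDH1, passed the q threshold with scores of 0.90 (q = 0.00366) and 0.77 (q = 0.00221). All 8 strains of this list had a positive score, with a median of 0.68, but KGD1, KGD2, LPD1 and FUM1 had no present tag in BC. In the list for iron-sulphur clusters and lipoic acid none of 9 was called, with NFU1 at 0.71 (q = 0.0225). Of 29 strains for mitochondrial structure, MIC10, a cristae organizer, was called (FD score 1.04, q = 0.00099), and its score was 0.84 without YPG replicate 3 or without YPG replicate 4 and 0.997 to 0.9999 without YPD replicate 3, 4, 5, 7 or 8. Another 7 of the 29, MDM38, MIC60 and CRD1 among them, had a positive score with q under 0.05.

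**Figure D2:**
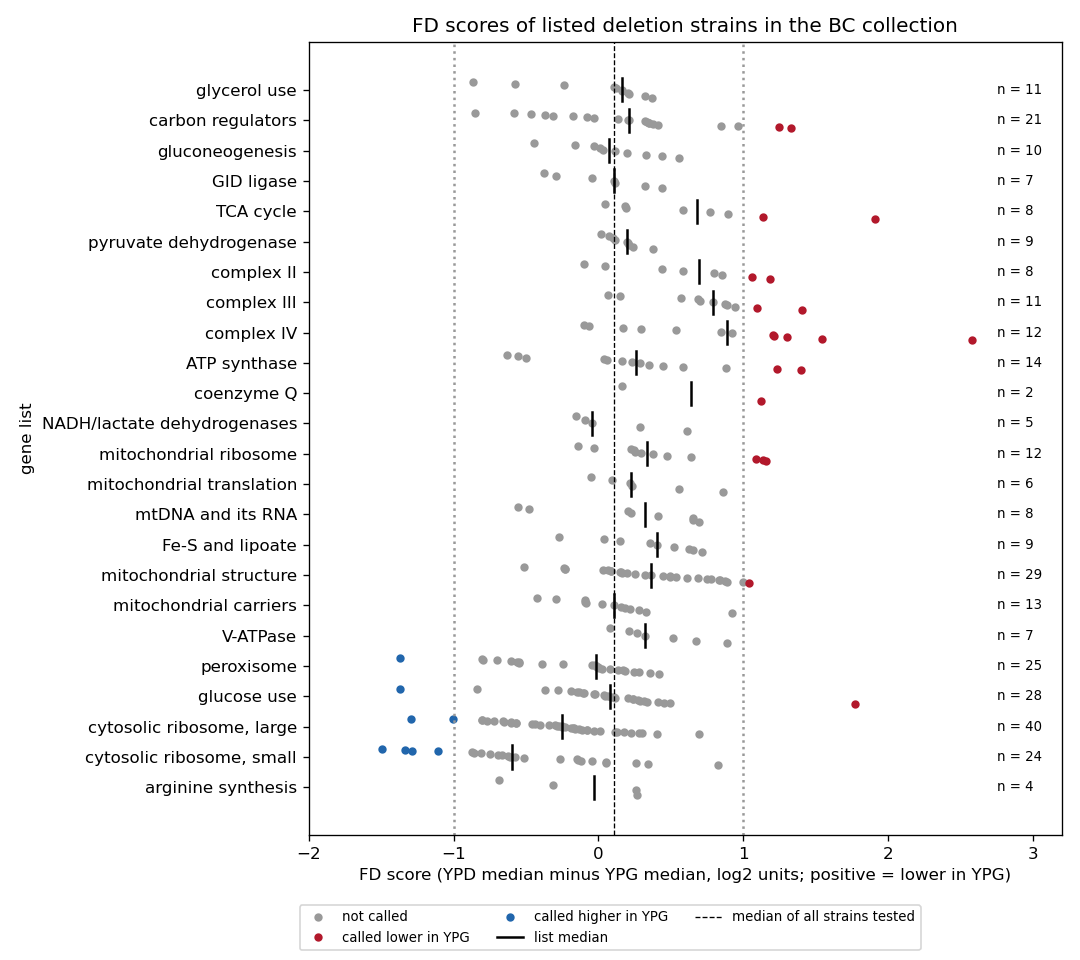
FD scores in BC (x axis, log2 units, positive when the strain was lower in YPG) of the present strains in 24 gene lists (y axis): each point is a strain, red when called lower and blue when called higher in YPG, and bars mark list medians. Complex IV has the highest median (0.89) and the small subunit of the cytosolic ribosome the lowest (-0.60).

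Among the 21 carbon regulators present, 2 were called lower, against 0.860% of all strains tested, and both were in the HAP complex. It is the transcriptional activator of many respiratory genes, with HAP2, HAP3 and HAP5 binding DNA and HAP4 activating. A HAP2 strain read 8.80, 8.83, 8.19 and 7.09 in YPG, against 9.27, 9.83 and 10.38 in YPD (FD score 1.33, SE 0.21, q = 1.3e-06), and another HAP2 strain had no present tag. HAP3 read 7.60, 7.34, 7.57 and 6.53 in YPG, against 8.00, 8.70 and 9.42 in YPD (FD score 1.25, SE 0.26, q = 0.000127). HAP4 read 9.00, 9.02, 9.01 and 8.52, against 9.65, 9.97 and 10.55 in YPD (FD score 0.96, q = 7.38e-06), and HAP5 scored 0.85 (q = 0.000298), both under the size limit. In all 4 HAP strains every YPG array lay below every YPD array, which held for 2.76% of all strains tested. Of the YPG values, 1 of HAP2 and 2 of HAP3 lay under the presence threshold. The other 17 carbon regulators present gave no call. CAT8, the activator of gluconeogenic genes, scored 0.41 (q = 0.0184), and ADR1, an activator of genes for glycerol and ethanol use, scored -0.31 (q = 0.388). SNF1 and SNF4, the kinase and its activating subunit required when glucose is absent, had no present tag in BC. REG1, which targets a phosphatase to Snf1 signalling, read 10.58, 10.43, 9.30 and 10.35 in YPG, against a wide spread of 8.27, 9.54 and 10.49 in YPD (FD score -0.85, q = 0.429).

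The enzymes that act on glycerol itself did not separate the media. GUT1, glycerol kinase, read 10.63, 10.50, 10.47 and 10.15 in YPG, against 9.98, 10.60 and 11.07 in YPD (FD score 0.11, SE 0.17, q = 0.633), and its second tag gave 0.16. GUT2, the mitochondrial glycerol-3-phosphate dehydrogenase, read 9.51, 9.64, 9.79 and 9.65 in YPG, against 9.19, 9.81 and 10.21 in YPD (FD score 0.16, SE 0.16, q = 0.572), and its second tag gave 0.09. STL1, the glycerol importer, scored 0.20 (q = 0.409). For all 3 the YPG and YPD values overlapped. Scores of GUT1 and GUT2 were -0.09 and -0.15 in PB and 0.27 and 0.34 in YKO, and none was called. GPP1, a glycerol-3-phosphatase of glycerol synthesis, was higher in YPG in all 4 arrays, at 9.77, 9.76, 9.81 and 10.33, against 8.56, 8.93 and 9.46 in YPD, with a score of -0.86 (q = 0.00555) that missed the size limit. None of the 10 gluconeogenesis strains was called. FBP1, fructose-1,6-bisphosphatase, scored 0.56 (q = 0.0841), ICL1, isocitrate lyase, 0.01 (q = 0.856) and PCK1, phosphoenolpyruvate carboxykinase, -0.45 (q = 0.754). The 7 strains of the GID ligase, which removes gluconeogenic enzymes once glucose returns, scored between -0.37 and 0.44, with none called. Neither the 9 strains of the pyruvate dehydrogenase list (highest PDA1, 0.37, q = 0.177) nor the 5 NADH and lactate dehydrogenases (highest DLD2, 0.61, q = 0.178) gave a call. Among the 13 mitochondrial carriers MIR1, the phosphate carrier, scored 0.92 (q = 0.000311). Among the 7 V-ATPase strains STV1, a subunit isoform, scored 0.89 (q = 0.00249), and neither passed the size limit. The arginine list had 4 strains present and no call, with CPA1, a subunit of carbamoyl phosphate synthetase, at 10.35, 10.25, 10.13 and 10.32 in YPG, against 8.35, 9.60 and 10.38 in YPD (FD score -0.68, q = 0.206).

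The list of glucose sensing and glycolysis held a call in each direction. GRR1, the F-box protein that relays glucose signals to the hexose transporter genes, read 7.23, 7.85, 7.63 and 7.80 in YPG, against 8.27, 9.48 and 9.91 in YPD (FD score 1.77, SE 0.23, q = 2.41e-06). PFK1, a subunit of phosphofructokinase, was higher, at 9.86, 9.45, 9.81 and 9.76 in YPG, against 7.51, 8.42 and 9.17 in YPD (FD score -1.37, SE 0.34, q = 0.0212), without overlap, although q was 0.0593 to 0.0712 without YPG replicate 1, 3 or 4. HXK2, hexokinase 2, scored 0.34 (q = 0.054). NIP100, of the dynactin complex, read 8.28, 8.36, 8.38 and 8.09 in YPG, against 8.91, 9.69 and 10.38 in YPD (FD score 1.37, SE 0.28, q = 0.00191). GLY1, threonine aldolase, was low in 2 of 4 YPG arrays only, at 6.66, 6.88, 8.63 and 8.36, against 7.45, 8.92 and 9.25 in YPD (FD score 1.30, SE 0.30, q = 0.0224). Its score was 0.56 without YPG replicate 1 or without YPG replicate 2. The other lower strains outside the lists were PSP2 (1.19), GEP7 (1.18, second tag 1.32), MIT1 (1.05), SNA4 (1.04) and CYK3 (1.01), of which MIT1, SNA4 and CYK3 lost their call when any of 5, 8 or 6 single arrays was left out, in that order. Several called strains lack a gene whose systematic name is next to that of a listed mitochondrial gene: QRI5 (MSS51), DMO1 (ATP2), YMR151W (IMP1), NIP100 (MRPL40), HAP2 (MTO1), HAP3 (PIM1) and, among the higher strains, SSF1 (HTD2). DMO1 scored 1.06 (q = 6.76e-05) and 0.87 without YPG replicate 3 or without YPG replicate 4, and YMR151W scored 1.24 (q = 1.84e-05), with second tags at 0.96 and 1.08. The share of all tested strains with a neighbour among the listed genes was not counted, so these names show no excess of neighbours. Whether a deletion touched its neighbour was not tested.

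**Figure D3:**
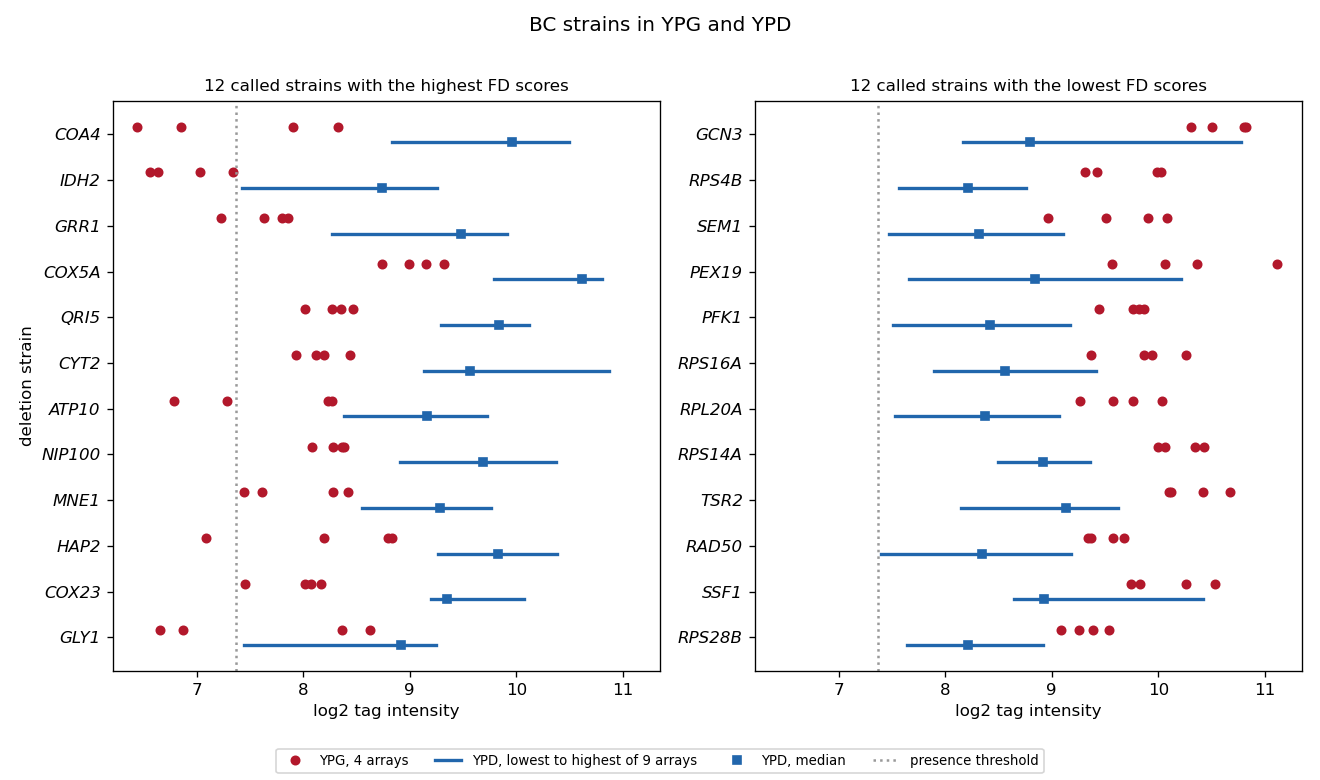
Log2 tag intensity (x axis) of the 12 called BC strains with the highest and the 12 with the lowest FD scores (y axis): red points are the 4 YPG arrays, blue lines run over the 9 YPD arrays with the median as a square, and the dotted line is the presence threshold (7.37). GLY1 is the only strain of the left panel whose YPG values fall into separate groups with 2 inside the YPD range, and on the right GCN3 and PEX19 show the widest YPD ranges.

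The strains higher in YPG were led in number by the cytosolic ribosome, whose genes in yeast mostly come as pairs of near-identical copies. Of the 24 small-subunit strains present, 4 were called higher and none lower, 12 had a negative score with q under 0.05, and the median was -0.60, against 0.11 over all strains tested. RPS4B read 9.31, 9.43, 10.03 and 9.99 in YPG, against 7.57, 8.21 and 8.76 in YPD (FD score -1.497, SE 0.20, q = 3.21e-06), without overlap. RPS14A read 9.99, 10.07, 10.43 and 10.35 in YPG, against 8.50, 8.92 and 9.36 in YPD (FD score -1.29, SE 0.21, q = 0.000101), and its second tag gave -1.06. RPS16A scored -1.34 (q = 0.0049) and RPS28B -1.11 (q = 0.0031), but RPS28B had -0.86 without YPD replicate 2, 4, 5 or 6 and -0.93 without YPD replicate 1. Copies of the same proteins did not all follow: RPS4A scored 0.34 (q = 0.438), RPS14B 0.05 (q = 0.998) and RPS28A -0.04 (q = 0.87), and RPS6A scored 0.83 (q = 0.00293). Differences between copies were not tested. The array reads the tags and not the genes. Of the 40 large-subunit strains 2 were called higher, and the median was -0.25. RPL20A read 9.76, 9.27, 10.04 and 9.57 in YPG, against 7.53, 8.37 and 9.07 in YPD (FD score -1.29, SE 0.30, q = 0.0021). RPL9A scored -1.002 (q = 0.0339) and lost its call when any of 8 single arrays was left out, with -0.93 without YPG replicate 1. TSR2, a factor in maturation of the small subunit, read 10.42, 10.10, 10.67 and 10.12 in YPG, against 8.15, 9.13 and 9.63 in YPD (FD score -1.14, SE 0.29, q = 0.00157), and -0.99 without YPG replicate 1 or without YPG replicate 3. SSF1, a factor of large-subunit maturation, scored -1.12 (q = 0.0275), and lost its call when any of 7 single arrays was left out, with -0.90 (limma q = 0.0859) without YPG replicate 2.

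The lowest score in BC was that of GCN3, a subunit of the translation factor eIF2B. It read 10.83, 10.80, 10.51 and 10.31 in YPG, against 8.17, 8.80 and 10.78 in YPD, so that the highest YPD array reached the YPG level (FD score -1.86, SE 0.44, q = 0.0355). Its limma q was 0.0688 to 0.0977 without any single YPG array and 0.0529 to 0.0616 without YPD replicate 2, 3, 4, 5 or 9. SEM1, a proteasome lid subunit, read 8.97, 9.91, 10.08 and 9.51 in YPG, against 7.47, 8.32 and 9.10 in YPD (FD score -1.39, SE 0.22, q = 0.000365). PEX19, a receptor for peroxisomal membrane proteins, read 10.06, 11.11, 10.36 and 9.57 in YPG, against 7.66, 8.84 and 10.21 in YPD (FD score -1.37, SE 0.37, q = 0.0217), with overlap. It had -0.97 without YPD replicate 1, 3, 4 or 5, and q was 0.124 without YPG replicate 2 and 0.0593 without YPG replicate 3. Without a presence filter PEX19 was read on its other tag, which was not present, and its score was 0.17. It was the single call among 25 peroxisome strains, whose median was -0.02, and PEX5 (-0.80), PEX10 (-0.70) and PEX2 (-0.61) also had a q under 0.05. RAD50, of the Mre11 complex in double-strand break repair, scored -1.12 (q = 0.0397), with q of 0.0688 to 0.114 without any single YPG array and 0.0523 to 0.0724 without YPD replicate 1, 2 or 8. The remaining higher strains, COG1 (-1.1), INO1 (-1.06), RSC1 (-1.03) and SET3 (-1.02), each lost the call when any of 6 to 8 single arrays was left out. The higher strains had low tag intensities in YPD, with medians of 7.84 to 9.13 log2 units, whereas the lower strains had medians of 8.26 to 10.84. Of the 17 higher calls 5 (RPS4B, RPS14A, RPS16A, RPL20A and SEM1) were kept when any single YPG or YPD array was left out, whereas 23 of the 33 lower calls were.

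The 4 YPG arrays did not deviate independently of each other. After removal of each group's mean over the tested tags, YPG replicates 1 and 2 deviated together (r = 0.37 over 3837 tags), and against replicates 3 and 4 (r = -0.60 to -0.52). Replicates 3 and 4 had r = -0.11 with each other, and independent arrays would give -0.33 on average, because the deviations are taken from the mean of the 4. Deviations of replicates 1 and 2 also ran with those of YPD replicates 6 and 7 (r = 0.22 to 0.36), and that of replicate 3 with YPD replicate 8 (r = 0.48). These correlations are over tags that share arrays and serve as a description. All 33 lower strains were below the YPD median, and all 17 higher strains above it, in the mean of replicates 1 and 2 and in the mean of replicates 3 and 4, but all 4 arrays had served to choose these strains. The drop was larger in replicates 3 and 4 for 24 of the 33, with a median of 1.496, against 1.095 in replicates 1 and 2. COA4 fell by 3.31 in replicates 3 and 4, against 1.85 in replicates 1 and 2. GLY1 ran the other way, with 0.42 in replicates 3 and 4, against 2.15 in replicates 1 and 2. In YPD replicates 6 and 7 the 33 lower strains were themselves low, by a median of 0.29 and 0.31 relative to the YPD median. In a fit with these array subsets as a term, chosen after seeing the data, 21 strains were called lower and 15 higher. That fit also left out YPD replicates 1 to 5 and all arrays in other media, so its counts do not give the effect of the term alone. With YPD replicates 6 to 9 as control and no such term, 21 were called lower and 9 higher. With YPG replicates 1 and 2 against YPD replicates 6 and 7 alone, limma called none at q under 0.05 (lowest q 0.214), with 13 strains at an unadjusted p under 0.05 and a score of at least 1. With YPG replicates 3 and 4 against YPD replicates 8 and 9 alone, it called 39 lower, 22 of them among the 33, and 4 higher, 1 of them among the 17. What set the subsets apart was not tested.

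**Figure D4:**
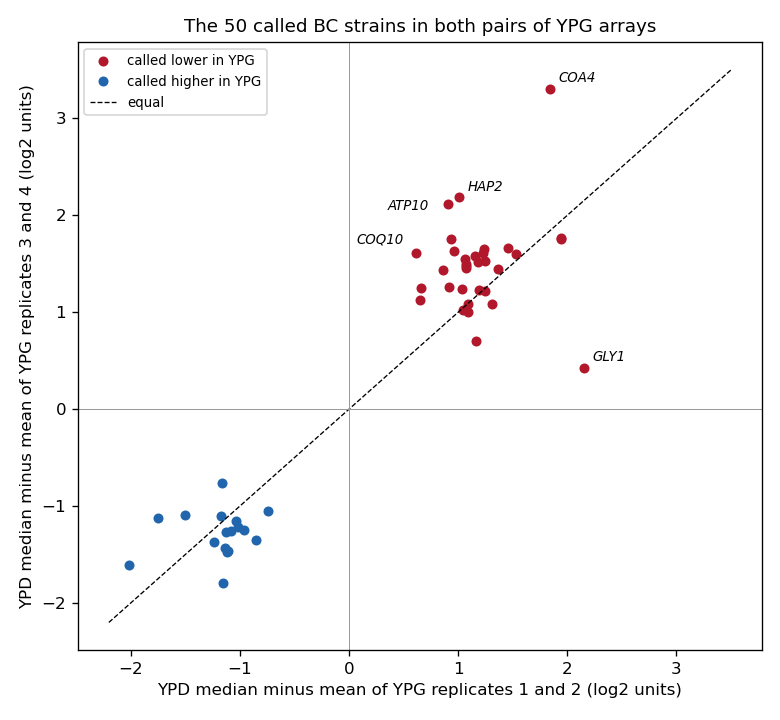
The 50 called BC strains by the YPD median minus the mean of YPG replicates 1 and 2 (x axis) and of YPG replicates 3 and 4 (y axis), in log2 units, red when called lower and blue when called higher in YPG. All points lie in the same direction on both axes, and COA4 (1.85 and 3.31) and GLY1 (2.15 and 0.42) lie far from the line of equal values.

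Called BC strains mostly had scores of the same sign in the other collections. Of the 33 lower strains, 25 were tested in PB, where 15 were called lower and 24 had a positive score, and 23 were tested in YKO, where 10 were called and 22 had a positive score. Over all strains, 4.83% were called lower in PB and 1787 of 4015 had a positive score. In YKO, 2.62% were called lower and 2103 of 3929 had a positive score. COX5A, COX23, CYT2, MNE1, ATP23, MRP49 and DMO1 were called lower in all 3 collections. COX5A scored 1.54 in BC, 1.08 in PB and 1.32 in YKO, and CYT2 scored 1.41 in BC, 1.86 in PB and 1.73 in YKO. COA4, not present in PB, scored 1.89 in YKO. IDH2 and GRR1 had no present tag in PB or YKO. Of the 17 higher strains, 9 were tested in PB and 9 in YKO, all with negative scores. One of them, RPS28B (-1.07), was called in PB, where 0.299% of strains were called higher, and none was called in YKO, where 0.356% were. The list of the small cytosolic ribosomal subunit was also negative there. Its median was -0.38 over 23 strains in PB, with 1 called higher, and -0.53 over 34 strains in YKO, with 5 called higher. On the 16 strains of this list present in all 3 collections, the median was -0.60 in BC, -0.34 in PB and -0.51 in YKO. For the 54 strains of the 8 respiratory lists present in all 3 collections, the median FD score was 0.43 in BC, 0.54 in PB and 0.42 in YKO. Over all 3212 strains present in all 3 collections it was 0.10 in BC, -0.05 in PB and 0.01 in YKO. Of the 54, 10 were called lower in BC, 18 in PB and 10 in YKO, and of the 3212, 18 in BC, 60 in PB and 31 in YKO.

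The difference of the YPG effect between collections was tested by an interaction term in limma on a tag present in both. The difference given for a strain is that of group means from the fit, so it departs from the difference of its median-based FD scores. Against PB, 3545 strains were tested, 40 of which (1.13%) had a lower score in BC and 42 (1.18%) a higher score in BC at q under 0.05. Of the 40, 30 had an FD score of at least 1 in PB, none reached 1 in BC, and 5 were among the 64 tested strains of the 8 respiratory lists. MSK1 scored -0.05 in BC, against 2.10 in PB (difference -2.10, SE 0.35, q = 4.29e-05). It read 7.53, 7.67, 7.52 and 6.97 log2 units in the PB YPG arrays, all under the lowest PB YPD value of 8.83, whereas its BC YPG values lay within the BC YPD range. ATP11 scored 0.35 in BC, against 2.10 in PB (difference -2.12, SE 0.50, q = 0.00806), and its difference was -1.39 (q = 0.0971) without PB YPG replicate 3, which read 4.91. LCB5, a sphingoid long-chain base kinase, scored 0.09 in BC, against 1.98 in PB (difference -1.85, q = 2.01e-07). YDL057W, an uncharacterized ORF, scored 0.45 in BC, against 1.96 in PB (difference -1.81, q = 3.65e-07). DCS1, an mRNA decapping scavenger factor, scored 0.86 in BC, against 2.47 in PB (difference -1.89, q = 0.000679).

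In the other direction the largest difference was that of VAM7, a vacuolar SNARE protein. It scored 0.69 in BC, against -0.41 in PB (difference 1.58, SE 0.33, q = 0.00161), and read 8.01, 7.55, 6.65 and 7.92 in BC YPG, against 9.17, 9.22, 8.98 and 9.18 in PB YPG. UTH1, a cell wall and mitochondrial protein, differed by 1.22 (q = 0.00829), KRE6, a glucan synthesis protein, by 1.15 (q = 0.00731), RPN10, a proteasome ubiquitin receptor, by 1.135 (q = 0.0237), and YPS7, a putative yapsin protease, by 1.09 (q = 0.00468). Without BC YPG replicate 4 the differences of UTH1 (1.06, q = 0.0578), RPN10 (0.90, q = 0.13) and YPS7 (0.75, q = 0.0713) missed the threshold, and RPN10 also missed it without BC YPG replicate 3 (q = 0.104), PB YPG replicate 1 (q = 0.069) or PB YPG replicate 4 (q = 0.0892). Against YKO, whose YPG group has 2 arrays, 3372 strains were tested, and 2 (0.0593%) had a lower and 1 (0.0297%) a higher score in BC, with 180 at an unadjusted p under 0.05. ABF2, which packages mitochondrial DNA, scored 0.65 in BC, against 2.67 in YKO (difference -1.77, SE 0.40, q = 0.0451). MSS2 scored -0.06 in BC, against 1.40 in YKO (difference -1.44, SE 0.30, q = 0.014), and 1.63 in PB (difference between BC and PB -1.79). TAT1, an amino acid permease, scored 0.62 in BC on the tag shared with YKO and 0.19 on its other tag, against -1.48 in YKO (difference 2.09, SE 0.39, q = 0.0044). None of the 3 passed once either YKO YPG array was left out: without replicate 1, q was 0.548 for ABF2, 0.548 for MSS2 and 0.144 for TAT1, and without replicate 2 it was 0.85, 0.23 and 0.23. The differences themselves stayed close, at -1.83 and -1.72 for ABF2, -1.38 and -1.49 for MSS2 and 2.14 and 2.05 for TAT1, and these fits assume that the lone YKO YPG array varies like the other groups. MSS2 also missed the threshold without BC YPG replicate 3 (difference -1.31, q = 0.113), and ABF2 when any of 14 other single arrays was left out, with differences of -1.79 to -1.58.

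**Figure D5:**
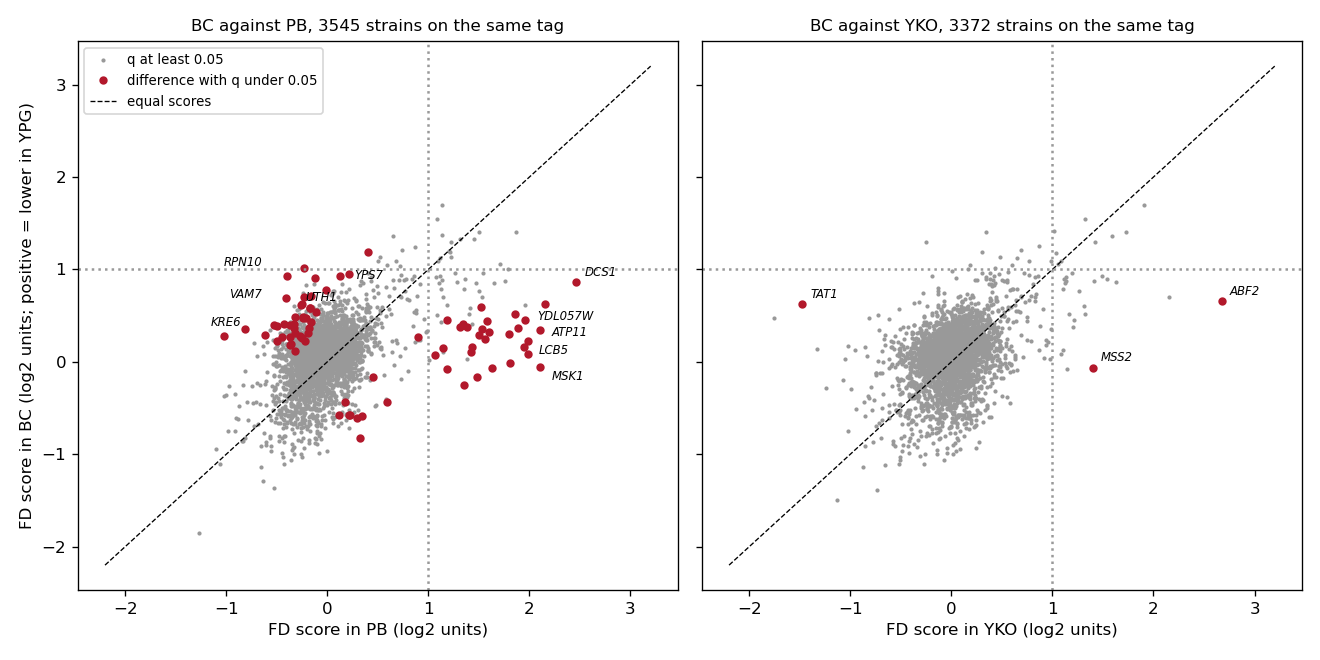
FD score in BC (y axis) against the FD score in PB (left, x axis) and YKO (right, x axis) on the same tag, in log2 units, positive when the strain was lower in YPG: red points are strains whose scores differed with q under 0.05. Against PB, 40 red points lie below the line of equal scores and 42 above it, and against YKO there are 3 in all.

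The same BC tags were also read under the uncouplers CCCP and FCCP, which dissipate the proton gradient made by respiration, against YPD with DMSO. The medians behind these FD scores share no arrays with those of YPG against YPD. The q values do share arrays, because their spread was taken over the BC arrays of all these media. The arrays in YPD with DMSO also helped to set presence and the choice of tag. Calls in the uncouplers and in YPG are therefore not fully independent. CCCP lowered 24 of 3837 strains (0.625%) and FCCP 26 (0.678%). Of the 33 strains lower in YPG, 4 (COA4, MNE1, COX12 and RTC6) were also lower in CCCP and none in FCCP, with median FD scores of 0.56 in CCCP and 0.16 in FCCP. PFK1, higher in YPG, was lower in both, with scores of 3.54 in CCCP and 2.59 in FCCP.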

How the data were processed

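The values are log2 intensities as deposited by the authors, 1 per tag and array, made from scans of TAG4 barcode arrays and scaled by them so that arrays of a set share a median for each kind of tag. The methods name a ComBat correction of replicates for technical variation, and whether the values used here had passed through it is not given in the sources used here. Columns of 135 other samples were not used. Arrays carry no counts, so their number limits the precision.

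Presence was set by a 2-component Gaussian mixture fitted to a collection's control arrays (posterior above 0.5 in each). The methods ask that every tag of a strain be present. Here 1 present tag was enough, and the stricter reading was an alternative. Differences were fitted with limma over the 36 BC arrays grown in YPD-based or YPG medium, with p-values adjusted by the Benjamini-Hochberg method across every strain in the fit. Interactions used the arrays of both collections. A call needed an FD score of at least 1 or at most -1 and q under 0.05. Symbols came from RefSeq by ORF (4630 of 4993 matched).

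The members, gene lists and tests were chosen with earlier results of these data known. The strains named were the 12 called strains at each end, up to 4 called strains of a list or else its strain with the lowest q, 14 glycerol, carbon and arginine genes whatever their values, the 5 largest differences in each direction between collections, and called neighbours of respiratory genes. Others, such as CMC1, RCF1, COX5B, the PEX genes and the RPS copies, were chosen after their values were seen.

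Alternatives changed the presence rule, tags, normalization, control arrays, variance model and replicates. The scripts were tested on simulated data. Software was Python 3.11.15, pandas 2.3.3, R 4.3.3 and limma 3.58.1.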

Additional observations from a re-analysis of the deposited data

Results flagged for a closer look

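In 140 groups of arrays over the 70 named strains, 11 held an array that lay far from the others, 4 in YPG and 7 in YPD. Chance gives about 1 in 20 such groups. In YPG, replicate 4 stood apart for RTC6 (7.65 log2 units), HAP4 (8.52) and HAP5 (7.70), each lower than the other YPG arrays, and for GPP1 (10.33), which was higher. In YPD, replicate 6 was the lowest for IDH2 (7.43), GRR1 (8.27) and COX5A (9.79), replicate 9 for MNE1 (8.55) and replicate 5 for CPA1 (8.35). YPD replicate 3 was the highest for COQ10 (11.44) and SSF1 (10.42).

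The effect of YPG differed between BC and another collection, by the interaction test, for 13 named strains. The FD score was lower in BC than in PB for ATP11 (-2.12), MSK1 (-2.10), DCS1 (-1.89), LCB5 (-1.85) and YDL057W (-1.81). It was higher in BC than in PB for VAM7 (1.58), UTH1 (1.22), KRE6 (1.15), RPN10 (1.135) and YPS7 (1.09). Against YKO it was lower in BC for ABF2 (-1.77) and MSS2 (-1.44) and higher in BC for TAT1 (2.09).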

How the results depend on the processing

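Against the 33 lower calls, 17 were made when every tag had to be present, 50 after quantile normalization, 21 with YPD replicates 6 to 9 as control, 60 with YPD replicates 1 to 5 as control, 21 with the array subsets as a term, 39 with YPG replicates 3 and 4 against YPD replicates 8 and 9, 40 with YPG arrays averaged in pairs and 0 with YPG replicates 1 and 2 against YPD replicates 6 and 7, where limma gave 13 strains an FD score of at least 1 with an unadjusted p under 0.05. Leaving out 1 array gave 29 to 47, and dropping the presence filter gave 40. The fit on YPG and YPD arrays alone gave 31, with a lowest limma q of 5.94e-05, against 2.01e-07 in the main fit. Against the 17 higher calls, 4 were made when every tag had to be present, 7 at a posterior above 0.9, 41 without a presence filter, 11 on uptags alone, 9 with YPD replicates 6 to 9 and 28 with YPD replicates 1 to 5 as control, 4 with YPG replicates 3 and 4 against YPD replicates 8 and 9, 4 with YPG arrays averaged in pairs and 0 with YPG replicates 1 and 2 against YPD replicates 6 and 7, where 20 had a score of at most -1 and an unadjusted p under 0.05. Leaving out 1 array gave 9 to 16, and the fit on YPG and YPD arrays alone gave 15. The settings that use array subsets or pairs were chosen after seeing the data. The fit with the array subsets as a term used the YPG arrays and YPD replicates 6 to 9 alone. PEX19 had a score of 0.17 without a presence filter, which takes its other tag. Of 672 recomputed list medians, 566 moved by less than the spread between replicates.

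The 82 differences between BC and PB became 31 when every tag had to be present and 40 to 94 with 1 array left out, and the 3 between BC and YKO became 1 when every tag had to be present, 5 after quantile normalization and 0 to 14 with 1 array left out. Deviations of YPG and YPD arrays with the same replicate number correlated at -0.27 to 0.12. The labels do not say whether such arrays shared a plate or a day. With the replicate number as a block, 32 strains were called lower, 15 higher, 13 differed between BC and PB and 4 between BC and YKO. The cause of these changes was not tested.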
